A study of Mus musculus with 8 samples.

Results

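Fatty acid oxidation and ketogenesis in the liver were followed here through 41 genes out of 35975 genes to which the deposited transcripts could be assigned. The 41 were a fixed list of names, not picked by their values, but the list was chosen with earlier results of these data known. All 41 were found, with 219 listed transcripts summed per gene, and all 41 passed the filter of at least 10 counts in every library that left 12883 genes for testing. The livers came from C57BL/6 mice (C57BL/6J in the methods) that had carried a cannula in the portal vein for 2 weeks. An osmotic pump delivered normal saline alone to the 4 control mice and 4-hydroxyphenylacetic acid (4-HPAA), a product of gut bacterial metabolism of polyphenols and aromatic amino acids, dissolved in normal saline at 55 mM to the other 4. Both groups therefore shared the surgery, the cannula, the saline, single housing and standard chow given freely. Mice were 8 to 10 weeks old when purchased, and their feeding state and the hour of collection are not given in the sources used here. Liver mRNA libraries were made with a directional kit, and the samples are numbered 1 to 4 within each group. P values measure the spread between these samples.

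Long-chain fatty acids that enter a hepatocyte are coupled to coenzyme A and are then either esterified or moved into mitochondria as carnitine esters, a step that carnitine palmitoyltransferase 1 controls and malonyl-CoA inhibits. In the mitochondrial matrix each turn of β-oxidation runs through a dehydrogenase, a hydratase, a second dehydrogenase and a thiolase, and the electrons leave through the electron transfer flavoprotein. Peroxisomes shorten very long and branched chains with a separate set of enzymes, and in fasting the acetyl-CoA made by mitochondria is turned into ketone bodies. The nuclear receptor PPARα, which binds fatty acids, drives many of these genes and is most active in the fasted liver.

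The libraries held 29559978 to 30673398 estimated counts, of which the members took 1.49% to 1.76%. Hepatocyte markers such as Alb, Ttr and Apoa1 were high in all 8 libraries, with a summed level of 112697 to 142004 CPM (counts normalized to library size, with TMM scaling) over 10 markers. The 4 Y-linked genes looked at were present in every library, at a summed 152 to 180 CPM, while the labels give no sex. Red blood cell markers summed to 2560 CPM in normal saline mouse 2 and to between 152 and 734 CPM in the other 7. Kupffer cell markers, 7 in all, summed to 76.0 to 253 CPM in the normal saline group and to 68.1 to 203 CPM in the 4-HPAA group. The library of 4-HPAA mouse 4 stood apart from the rest: it held the highest value of 18.7% and the lowest value of 20.6% of all genes tested, whereas no other library held the highest of more than 13.2% or the lowest of more than 12.7%. For that reason the counts over the members are given with and without it.

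No member passed a test of difference between the groups. By edgeR's quasi-likelihood test, 0 of 41 members passed an adjusted p of 0.05, as did 0 of the 12883 genes tested, a background of 0%. At an unadjusted p under 0.05 there were 0 members beside 225 of all genes, or 1.75%, and there were 0 members whose 4-HPAA values all lay on one side of the normal saline values beside 154 of all genes, or 1.2%. The smallest unadjusted p of a member was 0.174, for Eci1, and its adjusted p was 0.9999. Fitted log2 fold changes (4-HPAA over normal saline) ran from -0.39 for Acot3 to 0.20 for Acot2. Their median was 0.05 over the members and 0.00 over all genes tested, and the median size without sign was 0.06 for members and 0.07 for all genes. In 33 of 41 members the log2 fold change was above 0, beside 50.4% of all genes tested. Without 4-HPAA mouse 4 the split was 22 above 0 and 19 below, with a median of 0.00 over the members. Without any other single mouse 29 to 39 members were above 0. DESeq2 called 2 genes in all at an adjusted p of 0.05, of which 0 were members.

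The data bounded most members closely. The 95% interval of the log2 fold change lay within a 2-fold change in either direction for 39 of 41 members, within 1.5-fold for 36 and within 1.3-fold for 33. The exceptions to the 2-fold bound were Acot3, with an interval of -1.24 to 0.45, and Pdk4, with an interval of -1.08 to 0.93. These are a peroxisomal acyl-CoA thioesterase and the kinase that switches off pyruvate dehydrogenase, and both were among the members that varied most from mouse to mouse within a group.

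**Figure D1:**
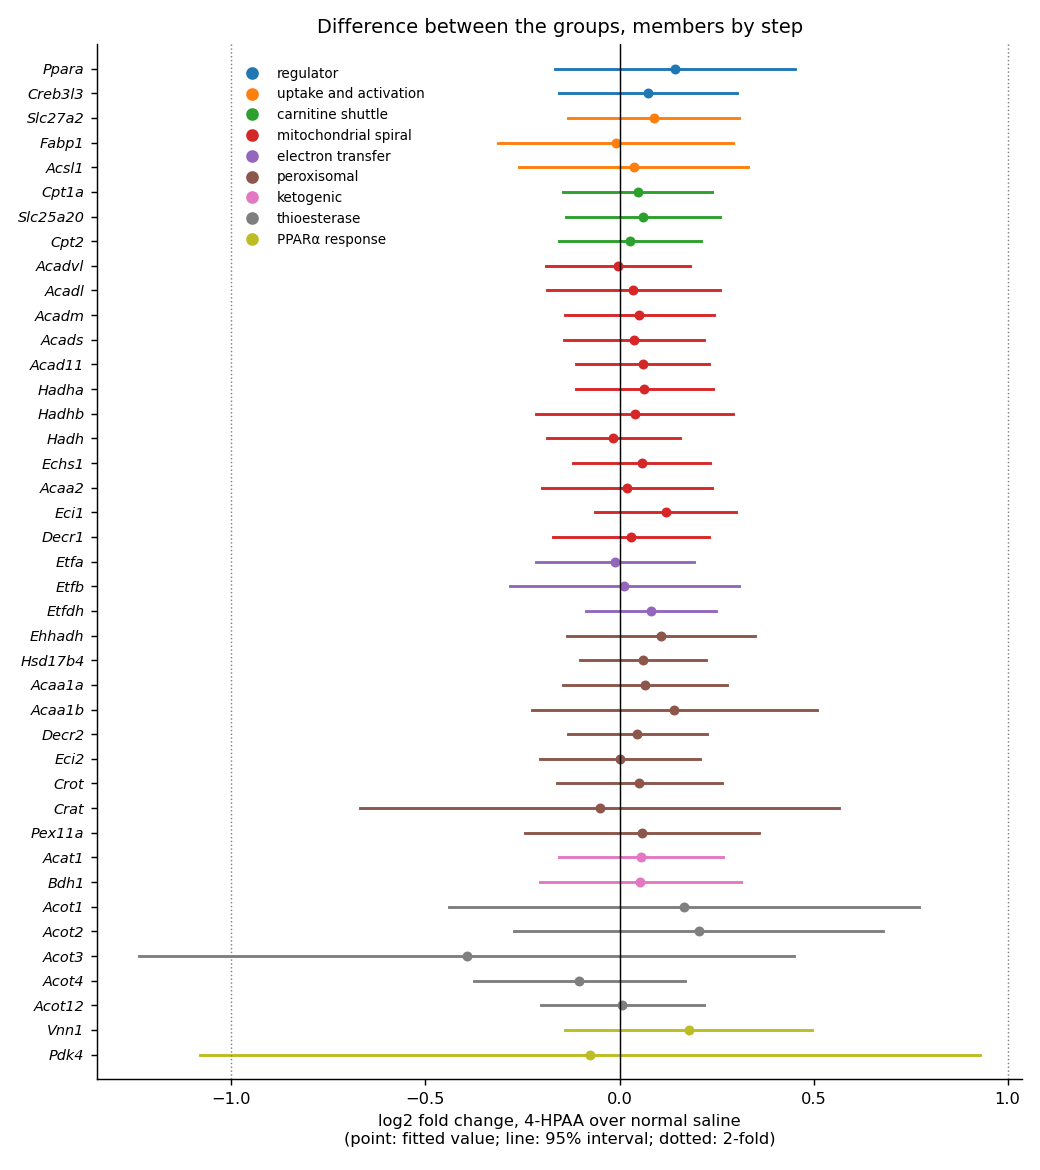
Fitted log2 fold change of each member between 4-HPAA and normal saline mice (x axis, 4 mice in each group), with members in order of step (y axis, colours). Points are the fitted values, lines the 95% intervals and dotted lines a 2-fold change; every interval crosses 0, and those of Acot3 and Pdk4 reach past the dotted line on the left.

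The regulators came first in the comparison. Ppara, which encodes PPARα itself, was at 163, 127, 145 and 118 CPM in normal saline mice 1 to 4 and at 155, 181, 154 and 120.4 CPM in 4-HPAA mice 1 to 4. The highest value was that of 4-HPAA mouse 2 and the lowest that of normal saline mouse 4, and the groups overlapped over most of their range. The log2 fold change was 0.14 (SE 0.14, 95% interval -0.17 to 0.45). Creb3l3 encodes CREBH, a transcription factor released from the endoplasmic reticulum membrane that works together with PPARα in the fasted liver. It was at 272, 285, 282 and 332 CPM in the normal saline mice and at 312, 265, 307 and 348 CPM in the 4-HPAA mice, with a log2 fold change of 0.07 (SE 0.10). Mouse 4 of each group was the highest of its group for Creb3l3 and the lowest of its group for Ppara.

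PPARα binds with its partner RXR to a direct repeat of AGGTCA with 1 base between the copies (AGGTCANAGGTCA). The window from 250 bases before to 50 bases after the start site, from the RefSeq promoters of GRCm38.p6, was available for 35 members and was searched on both strands with up to 2 mismatches, the middle base not counted. A match was found in 7 of the 35 members (20%) and in 4.4% of the 27025 genes with a window. Fabp1 and Acot12 had the closest matches, with 1 mismatch each, and are shown for that reason with 8 bases on either side. The capitals mark the match, which in both reads on the strand opposite to the gene.
Fabp1, chr6:71199804-71199832, + strand: acaatcacTGACCTATGGCCTatatctga
Acot12, chr13:91741403-91741431, + strand: taggacccTGACCTCTCACCTcctaagca
The match began 67 bases before the start site of Fabp1 and 110 bases before that of Acot12. The other 5, each with 2 mismatches, were Acot4, Creb3l3, Echs1, Etfa and Slc25a20, the last of them after the start site. A match is a description of these letters and not a measured binding site. The 7 genes did not share a direction: the log2 fold change was -0.01 for Fabp1, 0.01 for Acot12, -0.10 for Acot4, 0.07 for Creb3l3, 0.06 for Echs1, -0.01 for Etfa and 0.06 for Slc25a20.

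Uptake and activation held the most abundant members. Compared per length, as TPM (normalized for length and library size) from annotated transcript lengths, Fabp1, the liver's fatty acid-binding protein, stood first at 10482 TPM as the mean of the 8 mice, 7.22 times the level of Slc27a2, a fatty acid transporter and very long-chain acyl-CoA synthetase, at 1451 TPM. Acsl1, the main long-chain acyl-CoA synthetase of liver, was at 508 TPM. Fabp1 was measured at 3569 ± 296 CPM (SD, n = 4) in normal saline mice and 3545 ± 614 CPM in 4-HPAA mice. Slc27a2 was at 1748 ± 117 CPM and 1858 ± 161 CPM in the same order, and Acsl1 at 1159 ± 108 CPM and 1188 ± 208 CPM. The differences between the means were smaller than the SD of the 4-HPAA group in all 3 genes, and the log2 fold changes were -0.01, 0.09 and 0.04.

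**Figure D2:**
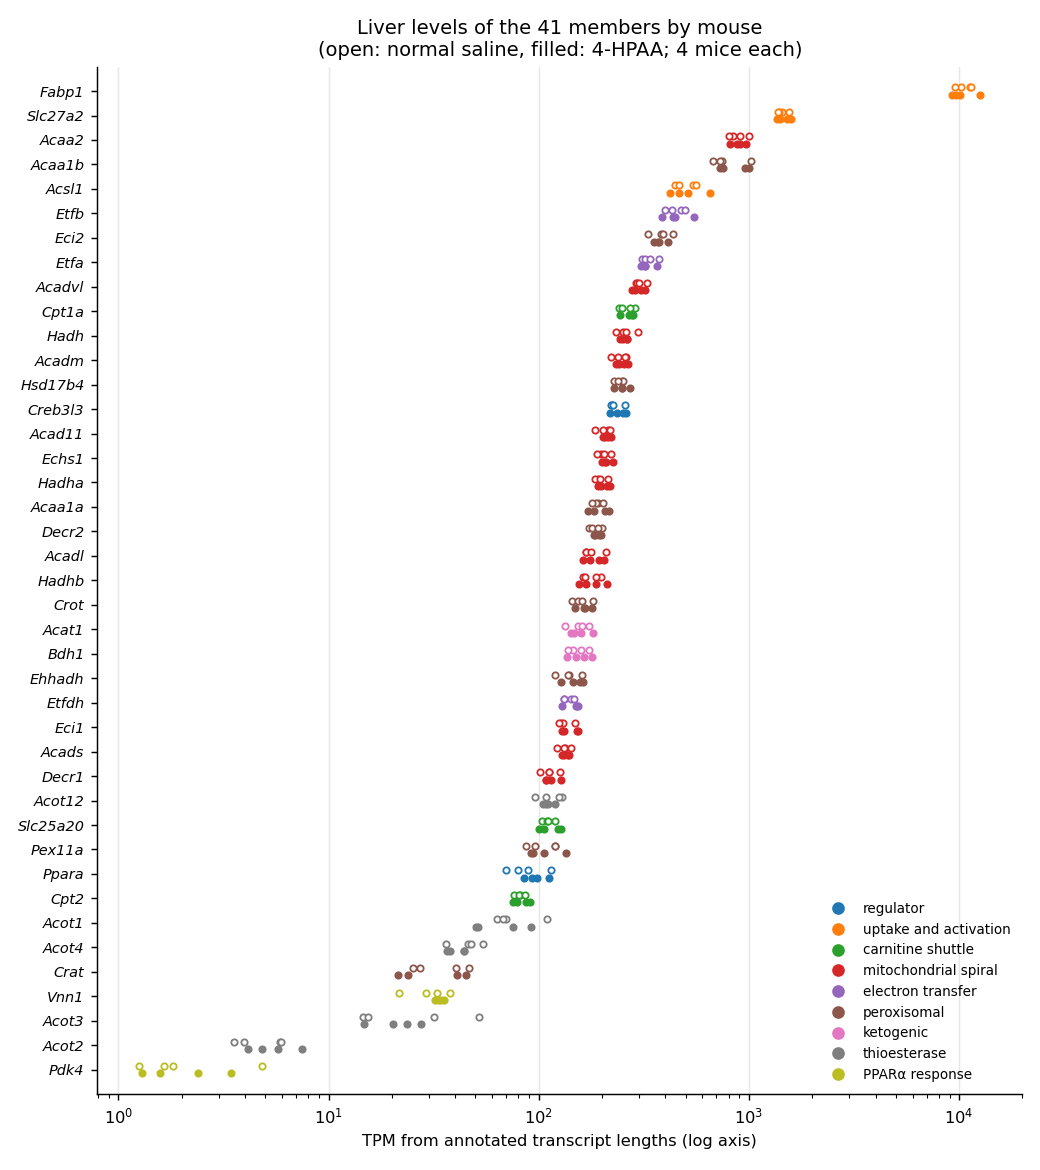
Level of each member in each mouse in TPM on a log axis (x axis), members ordered by their mean (y axis) and coloured by step; open circles are normal saline mice and filled circles 4-HPAA mice. Fabp1 stands first near 10482 TPM and Pdk4 last near 2.28 TPM, and open and filled circles overlap in every row.

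In the carnitine shuttle the differences stayed within the spread between mice. Cpt1a encodes carnitine palmitoyltransferase 1, the step at which malonyl-CoA holds back oxidation. It was at 714, 629, 629 and 711 CPM in the normal saline mice and at 657, 688, 678 and 748 CPM in the 4-HPAA mice. All 8 values lay within a factor of 1.19, and the log2 fold change was 0.05 (SE 0.09, 95% interval -0.15 to 0.24). Slc25a20, the translocase that carries acylcarnitines across the inner membrane, was at 120.2 ± 3.78 CPM (SD, n = 4) and 125 ± 14.5 CPM. Cpt2, which hands the chain back to coenzyme A in the matrix, was at 116 ± 4.49 CPM and 118 ± 11.1 CPM. Per length, Cpt1a (264 TPM) exceeded Slc25a20 (113 TPM) and Cpt2 (82.0 TPM).

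The 12 members of the mitochondrial spiral had log2 fold changes between -0.02 and 0.12, with 10 above 0 and 2 below, and without 4-HPAA mouse 4 with 5 above 0 and 7 below. With any other single mouse left out, the split ran from 7 and 5 (without normal saline mouse 3) to 12 and 0 (without normal saline mouse 1). The acyl-CoA dehydrogenases, which take the first electrons from chains of decreasing length, gave 0.00 for Acadvl (very long chain), 0.04 for Acadl (long), 0.05 for Acadm (medium) and 0.04 for Acads (short), with SE of 0.08 to 0.10. Their mean levels in normal saline mice were 390.0 ± 13.1, 209.7 ± 18.4, 276 ± 11.6 and 149.9 ± 11.2 CPM (SD, n = 4), and in 4-HPAA mice 389 ± 32.8, 215 ± 23.8, 286 ± 27.3 and 154 ± 9.47 CPM. Acad11, a family member that acts on hydroxylated chains, was at 415 ± 23.7 CPM and 432 ± 16.4 CPM. For the subunits of the trifunctional protein, which carries out the last 3 reactions on long chains, the log2 fold change was 0.06 (SE 0.08) for Hadha and 0.04 (SE 0.11) for Hadhb. The short-chain enzymes Echs1, an enoyl-CoA hydratase, and Hadh, a hydroxyacyl-CoA dehydrogenase, gave 0.06 and -0.02. Acaa2, the matrix thiolase, was the most abundant of the 12 at 889 TPM and was at 821 ± 63.8 CPM in normal saline mice and 831 ± 76.2 CPM in 4-HPAA mice. None of the 12 passed the test at either threshold.

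Unsaturated chains need auxiliary enzymes before they can pass through the spiral. Eci1, the mitochondrial enoyl-CoA isomerase, had the smallest p of all members. It was at 96.8, 88.3, 88.1 and 85.3 CPM in normal saline mice and at 91.9, 88.6, 103 and 106 CPM in 4-HPAA mice. The highest 2 values, in 4-HPAA mice 3 and 4, lay above all normal saline values, and the other 4-HPAA values lay inside the normal saline range. The log2 fold change was 0.12 (SE 0.08, 95% interval -0.06 to 0.30). Decr1, the mitochondrial dienoyl-CoA reductase, gave 0.03 (SE 0.09).

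Electron transfer had no difference beyond the spread either. Etfdh, the oxidoreductase that passes electrons from the flavoprotein to ubiquinone, was at 200, 197, 212 and 195 CPM in normal saline mice and 195, 212, 216 and 228 CPM in 4-HPAA mice. Apart from 4-HPAA mice 3 and 4, all values fell between 195 and 212 CPM. Its log2 fold change was 0.08 (SE 0.07). The flavoprotein subunits Etfa and Etfb gave -0.01 (SE 0.09) and 0.01 (SE 0.13). Etfb shares 47.3% of its 31-base stretches with the read-through gene Gm45233, which held 14 counts on average against 6375 for Etfb.

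The peroxisomal step held 9 members, with 8 log2 fold changes above 0 and 1 below, and a median of 0.06. Without 4-HPAA mouse 4 the split was 7 to 2 and the median 0.03. With any other single mouse left out, it ran from 6 to 3 (without 4-HPAA mouse 3) to 9 to 0 (without 4-HPAA mouse 2). Ehhadh, the L-bifunctional enzyme and a classical PPARα target, was at 243, 222, 248.7 and 297 CPM in normal saline mice and at 245, 259, 279 and 307 CPM in 4-HPAA mice. Mouse 4 of each group was the highest of its group, and the ranges overlapped from 245 to 297 CPM. The log2 fold change was 0.11 (SE 0.11). Hsd17b4, the D-bifunctional enzyme that handles branched chains and bile acid precursors, was at 388 ± 12.1 CPM (SD, n = 4) and 404 ± 18.8 CPM. Decr2 and Eci2, the peroxisomal counterparts of the auxiliary enzymes, gave 0.05 and 0.00. Crot, which makes medium-chain carnitine esters for export, gave 0.05, and Pex11a, a peroxin of peroxisome division, gave 0.06 (SE 0.13).

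The peroxisomal thiolases exist in mice as a pair of closely related genes. Acaa1b was at 649.7, 768, 703 and 1024 CPM in normal saline mice and at 789.8, 709, 935 and 1035 CPM in 4-HPAA mice. The values fell between 650 and 790 CPM in 5 mice and between 935 and 1035 CPM in the other 3, normal saline mouse 4 and 4-HPAA mice 3 and 4. Acaa1a was at 203, 211, 199 and 229.8 CPM in normal saline mice and at 219, 189, 227 and 247 CPM in 4-HPAA mice, a range of 1.3-fold. Per length, Acaa1b was 4.31 times as abundant as Acaa1a, at 827 and 192 TPM. The log2 fold change was 0.14 (SE 0.16) for Acaa1b and 0.07 (SE 0.09) for Acaa1a. Of the 31-base stretches in the annotated transcripts, 40.0% of those of Acaa1b and 16.9% of those of Acaa1a occur in the other gene as well, so the division of reads between them rests on the remainder.

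Crat fell into separate levels that did not follow the infusion. It encodes carnitine acetyltransferase, which links acetyl-CoA to carnitine in mitochondria and peroxisomes. The normal saline mice were at 63.4, 37.5, 36.0 and 60.0 CPM and the 4-HPAA mice at 32.7, 32.1, 62.3 and 62.9 CPM. Mice 1 and 4 of the normal saline group and mice 3 and 4 of the 4-HPAA group were therefore between 60.0 and 63.4 CPM, and the other 4 mice between 32.1 and 37.5 CPM, with no value between. Each level held 2 mice of each group, and the log2 fold change was -0.05 (SE 0.28, 95% interval -0.67 to 0.57). The main transcript, ENSMUST00000028207.12, which held 57.1% of the gene's counts, showed the same gap, with 35.4 to 37.4 CPM in the mice of the upper level and 18.0 to 21.3 CPM in the others. Crat overlaps Dolpp1 on the opposite strand, which held 353 counts on average against 1443 for Crat, and shares 0.52% of its 31-base stretches with it.

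**Figure D3:**
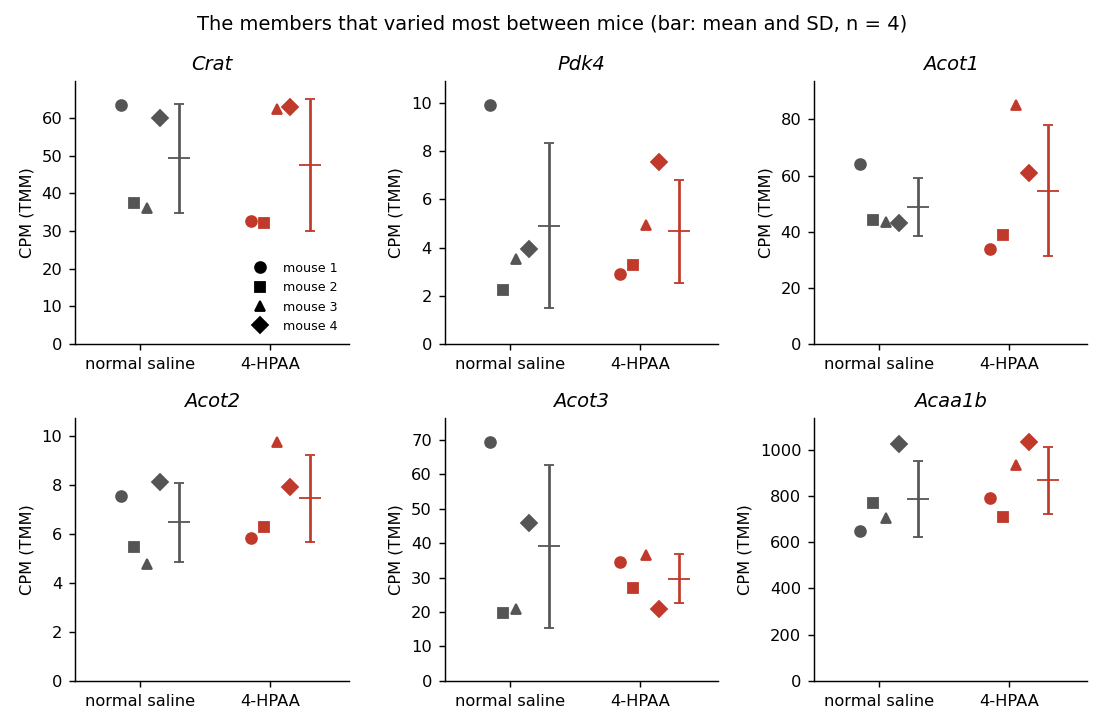
CPM of the 6 members with the largest SD of log2 CPM over the mice (y axes, from 0), by group (x axis); symbols are mice 1 to 4 of each group and bars the mean and SD of 4 mice. Crat lies at 60.0 CPM or above or at 37.5 CPM or below, in 2 mice of each group each, and in all 6 genes the groups overlap.

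The ketogenic members were close between the groups. Acat1, the mitochondrial acetoacetyl-CoA thiolase that opens ketogenesis and also acts in reverse in ketone use, was at 312, 254, 297 and 287 CPM in normal saline mice and at 275, 281, 303 and 336 CPM in 4-HPAA mice. Bdh1, which reduces acetoacetate to 3-hydroxybutyrate in the last step, was at 197, 176, 163 and 195 CPM in normal saline mice and at 203, 175, 159 and 222 CPM in 4-HPAA mice. For both genes 4-HPAA mouse 4 was the highest of all 8, and the lowest was normal saline mouse 2 for Acat1 and 4-HPAA mouse 3 for Bdh1. The log2 fold change was 0.06 (SE 0.10, 95% interval -0.16 to 0.27) for Acat1 and 0.05 (SE 0.12, 95% interval -0.21 to 0.31) for Bdh1.

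The acyl-CoA thioesterases, which free fatty acids from coenzyme A, varied widely from mouse to mouse, with a median SD of log2 CPM over the 8 mice of 0.32 beside 0.12 over all members and 0.16 over all genes tested. Acot1, the cytosolic enzyme, was at 64.1, 44.2, 43.5 and 43.2 CPM in normal saline mice and at 33.8, 38.9, 85.2 and 61.0 CPM in 4-HPAA mice. Acot2, its mitochondrial paralogue, was at 7.57, 5.45, 4.76 and 8.11 CPM in normal saline mice and at 5.83, 6.30, 9.77 and 7.90 CPM in 4-HPAA mice. For both, 4-HPAA mouse 3 was the highest of all 8. Acot3, a peroxisomal paralogue, was at 69.5, 19.7, 21 and 46.0 CPM in normal saline mice and at 34.4, 27.0, 36.6 and 20.9 CPM in 4-HPAA mice. Acot4, another peroxisomal paralogue, was at 159, 104, 129 and 148 CPM in normal saline mice and at 125, 125, 135 and 119 CPM in 4-HPAA mice. Normal saline mouse 1 was the highest of all 8 and normal saline mouse 2 the lowest for both Acot3 and Acot4, so the whole range of each lay within the control group. The log2 fold changes were 0.17 (SE 0.27) for Acot1, 0.20 (SE 0.21) for Acot2, -0.39 (SE 0.38) for Acot3 and -0.10 (SE 0.12) for Acot4. The value for Acot3 rested on normal saline mouse 1, and without that mouse it was 0.04. Acot12, an acetyl-CoA thioesterase of the cytosol, was at 178 ± 19.2 CPM (SD, n = 4) and 179 ± 12.2 CPM. Acot1 and Acot2 are neighbours with like sequence: 16.7% of the 31-base stretches of Acot1 and 29.9% of those of Acot2 occur in the other gene. Counted over all other genes, the shared part was 22.8% for Acot1, 37.7% for Acot2, 23.1% for Acot3 and 8.84% for Acot4. The largest partner of Acot3 was Gm49366, with 11.5%, which overlaps both Acot3 and Acot4 on the same strand. How far the split of reads between these genes is in error was not measured.

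Vnn1 and Pdk4 answer to PPARα without taking part in the spiral. Vnn1 encodes a pantetheinase, which recycles the vitamin part of coenzyme A. It was at 51.8, 41.7, 44.2 and 30.8 CPM in normal saline mice and at 52.6, 44.0, 44.2 and 49.8 CPM in 4-HPAA mice, with a log2 fold change of 0.18 (SE 0.14). The low end was normal saline mouse 4 alone, and the other 7 values lay between 41.7 and 52.6 CPM. Pdk4 encodes the kinase that turns off pyruvate dehydrogenase in fasting and so spares glucose. It was at 9.91, 2.26, 3.51 and 3.95 CPM in normal saline mice and at 2.90, 3.27, 4.95 and 7.55 CPM in 4-HPAA mice. The spread of 4.38-fold was the widest of all members, with normal saline mouse 1 and 4-HPAA mouse 4 at the top, and the log2 fold change was -0.08 (SE 0.45).

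Many members had their highest value in the same mouse. Of the 41, 26 (63.4%) had their highest value in 4-HPAA mouse 4, beside 18.7% of all genes tested, and 35 were above their median there. Fewer of the other genes of the pathway did so: 10 of 38 further oxidation and ketogenesis genes, 3 of 17 further PPARα targets and cofactors and 7 of 15 peroxisome biogenesis genes. Normal saline mouse 1 held the highest value of 7 members and 4-HPAA mouse 3 of 5, while normal saline mice 2 and 4 held none. Taking each member's log2 CPM against its mean over the mice, the median over the members was 0.17 in 4-HPAA mouse 4, 0.07 in normal saline mouse 1 and 0.06 in 4-HPAA mouse 3. It was -0.10 in 4-HPAA mouse 2, -0.08 in normal saline mouse 2 and -0.08 in normal saline mouse 3. Normal saline mouse 4 and 4-HPAA mouse 1 were at 0.02 and 0.00. The same median over all genes tested lay between -0.01 and 0.01 in every mouse. Each group thus held mice from both ends, and the distance between mice of one group exceeded the difference between the groups.

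**Figure D4:**
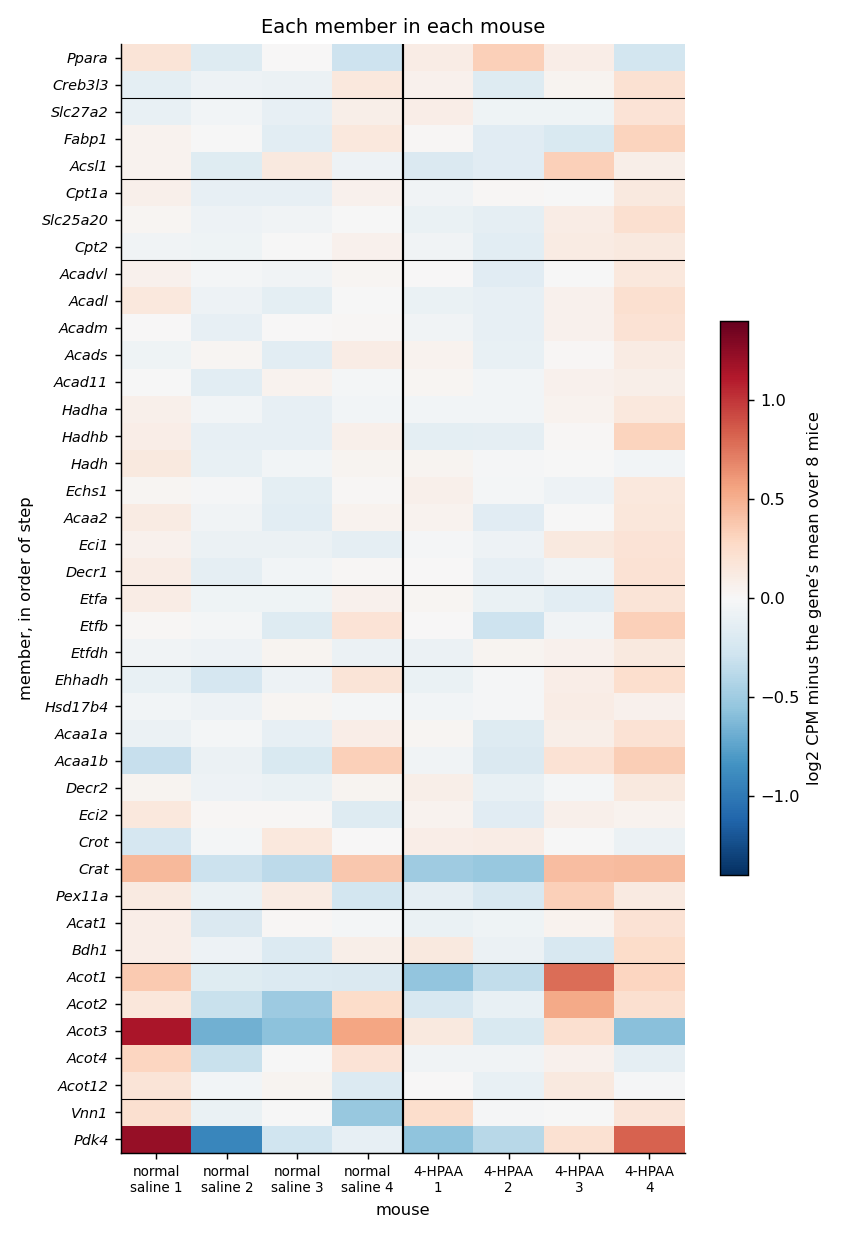
Log2 CPM of each member minus its mean over the 8 mice (colour, red higher and blue lower), members in order of step (y axis) and mice by group (x axis, the line parts the groups). The column of 4-HPAA mouse 4 is red in most rows, with a median of 0.17, and that of 4-HPAA mouse 2 is blue in most, with a median of -0.10.

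The mice with the 4 highest values were often the same ones. In 9 members, Fabp1, Acadvl, Echs1, Acaa2, Decr1, Etfa, Etfb, Decr2 and Bdh1, these were normal saline mice 1 and 4 and 4-HPAA mice 1 and 4, a set found in 4.17% of all genes tested. In 7 members, Slc25a20, Acadl, Hadha, Hadhb, Crat, Acot2 and Pdk4, they were normal saline mice 1 and 4 and 4-HPAA mice 3 and 4, a set found in 3.12% of all genes. Both sets hold 2 mice of each group, and this description was made after the values were seen.

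The mice at the top for Pdk4, normal saline mouse 1 and 4-HPAA mouse 4, held the 2 highest values of 11 of the 41 members, Pdk4 included, and of 6.42% of all genes tested. The pair was picked from member values, so its share of the members is partly set by that choice. The same mice held the 2 highest values of 5 of 9 genes listed as fasting genes, 2 of 9 tested feeding and lipogenic genes and 2 of 17 further PPARα targets and cofactors. They also held those of 5 of 38 further oxidation and ketogenesis genes, 2 of 10 hepatocyte markers and 0 of 15 peroxisome biogenesis genes. Among the 5 fasting genes was Igfbp1, a secreted binding protein that is high in fasting. It was at 378 CPM in normal saline mouse 1 and 282 CPM in 4-HPAA mouse 4, and between 88.5 and 170 CPM in the other 6. Cdkn1a, a cell cycle inhibitor, was at 28.4 and 27.2 CPM in these mice and between 2.78 and 7.60 CPM in the rest. Fgf21, the PPARα-driven hormone of fasting, was 1 of the 2 among the further PPARα targets. It was at 2.92 CPM in normal saline mouse 1 and 5.95 CPM in 4-HPAA mouse 4, and between 0.40 and 1.68 CPM in the rest. Its counts were few, with 12 in its lowest library. Other fasting genes did not share this order, and among the feeding and lipogenic genes 4 of 9 had their highest value in 4-HPAA mouse 4. Summed fasting genes were at 10313 CPM in normal saline mouse 1 and 9609 CPM in 4-HPAA mouse 4, and between 7264 and 9354 CPM in the other 6. Summed feeding and lipogenic genes were high in these mice as well, at 10115.5 and 9338 CPM, and between 5766 and 9873 CPM in the other 6. These genes were looked at after the Pdk4 values were seen. Kupffer cell markers were lowest in 4-HPAA mouse 4 at a summed 68.1 CPM, followed by normal saline mouse 4 at 76.0 CPM and normal saline mouse 1 at 88.7 CPM. Summed hepatocyte markers were highest in 4-HPAA mouse 4 at 142004 CPM, with normal saline mouse 4 close to it at 141430 CPM. Of the 10 hepatocyte markers, 3 had their highest value in 4-HPAA mouse 4. The part of these cell markers in the member values was not tested. In bulk liver fewer cells of a type and less RNA per cell cannot be told apart.

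The remaining genes of the pathway, listed by name, fell into 3 lists of 70 tested genes in all, of which 4 (5.71%) had an unadjusted p under 0.05 beside 1.75% of all genes tested, and 0 passed adjustment. Of 38 further oxidation and ketogenesis genes, 22 had a log2 fold change above 0 and 16 below (17 and 21 without 4-HPAA mouse 4), 1 had an unadjusted p under 0.05 and 0 passed adjustment. That gene was Acot8, a peroxisomal thioesterase, at 13.4 ± 1.11 CPM (SD, n = 4) in normal saline mice and 15.8 ± 1.33 CPM in 4-HPAA mice, a log2 fold change of 0.24 (SE 0.09). Of 17 further PPARα targets and cofactors, 10 were above 0 and 7 below (7 and 10 without that mouse), and 0 passed adjustment. Cd36, a fatty acid translocase, was the one with an unadjusted p under 0.05, at 43.8, 47.6, 47.3 and 43.2 CPM in normal saline mice and 37.7, 41, 32.8 and 35.8 CPM in 4-HPAA mice. Its groups did not overlap, as in 1.2% of all genes tested, and the log2 fold change was -0.30 (SE 0.08). Of 15 peroxisome biogenesis genes, 9 were above 0 and 6 below (7 and 8 without that mouse), and 0 passed adjustment. In this list 2 genes had an unadjusted p under 0.05, and the groups did not overlap in 2, beside 1.2% of all genes tested. Pex7, the receptor that imports thiolase into peroxisomes, was 1 of those with an unadjusted p under 0.05, with a log2 fold change of 0.16 (SE 0.06). Without normal saline mouse 4 the 3 lists had, in the order given, 27, 8 and 13 genes above 0 and 11, 9 and 2 below.

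Single transcripts of the members were tested as well, since a change of isoform can leave the sum of a gene unchanged. Of 219 member transcripts, 136 passed the filter, and 0 of them passed an adjusted p of 0.05, beside 0 of 25533 transcripts, or 0%. At an unadjusted p under 0.05 there were 3 of 136, all lower in 4-HPAA mice, beside 3.83% of all transcripts tested. The first was ENSMUST00000120854.7 of Acad11, at 14.2, 25.5, 22.3 and 30.1 CPM in normal saline mice and 13.5, 13.4, 12.5 and 7.14 CPM in 4-HPAA mice. The log2 fold change was -0.98 (SE 0.26), and the transcript held 4.04% of the counts of its gene. The second was ENSMUST00000221860.1 of Acot4, which held 1.02% of its gene, at a log2 fold change of -0.56 (SE 0.19).

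The third, ENSMUST00000222862.1 of Acot1, held 24.4% of the gene and was at 22.0, 11.9, 14.9 and 13.7 CPM in normal saline mice and 11.2, 9.10, 7.23 and 12.4 CPM in 4-HPAA mice. The log2 fold change was -0.65 (SE 0.22). The main transcript of the same gene, ENSMUST00000168120.2 with 50% of the counts, was at 24.1, 20.1, 14 and 15.5 CPM in normal saline mice and 10.3, 23.0, 64.3 and 38.3 CPM in 4-HPAA mice. The high sum of Acot1 in 4-HPAA mice 3 and 4 was thus carried by this transcript, while in normal saline mouse 1 the high sum was shared by 3 transcripts. Isoforms of a gene share sequence, and how estimated counts divide among them carries an error that the counts do not show.

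**Figure D5:**
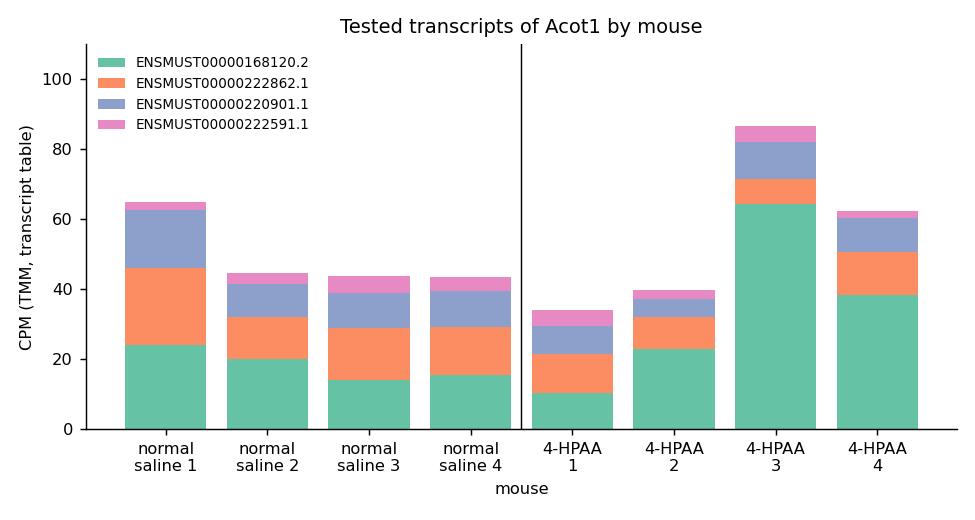
Stacked CPM (y axis, from 0) of the 4 tested transcripts of Acot1 (colours) in each mouse (x axis). The transcript ENSMUST00000168120.2 reaches 64.3 CPM in 4-HPAA mouse 3 and 38.3 CPM in 4-HPAA mouse 4 and lies between 10.3 and 24.1 CPM in the other 6 mice.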

How the data were processed

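Sequenced liver RNA came from 4 mice per group. Per the labels and methods, the authors pseudo-aligned 100 bp paired-end reads with kallisto and deposited 1 table of estimated counts per transcript and mouse, unnormalized. The submitters' processing notes also name FastQC 0.11.9, DESeq2, edgeR and GRCm38.p6. The study names NCBI annotations, whereas the table lists Ensembl transcripts. Transcripts were matched to GENCODE M21 genes (116728 of 119414 transcripts; the rest held 0.703% to 1.06% of counts), summed per gene and rounded.

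A gene entered the test if no library held fewer than 10 of its counts, and edgeR 4.0.16 was used (TMM, quasi-likelihood F test, Benjamini-Hochberg adjustment over all genes tested, threshold 0.05) in R 4.3.3. SE was obtained from the F statistic of each gene, and 95% intervals use the t distribution. DESeq2 1.42.0, limma-voom (limma 3.58.1), other normalizations and filters, left-out libraries and the replicate number as a block were alternatives. The steps were tested on simulated counts. With minimum counts of 66 to 93861 per library, member precision follows the variation between samples.

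Members and lists were chosen with earlier results of these data known. All members are named. Values per mouse are given for the regulators, Cpt1a, the ketogenic members, the 6 smallest p, the 6 largest SD of log2 CPM and the paralogues. Of the other lists, at most the 3 genes with the smallest p are named, and those set beside a member. Shared 31-base stretches were counted in the annotated transcripts on both strands. Proteins were not used here. Some genes of the other lists are not reported here.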

Additional observations from a re-analysis of the deposited data

Results flagged for a closer look

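Among 82 groups of 4 values (41 members in each infusion group), 3 held a value far from the other 3 by Dixon's ratio, the gap to the nearest value over the whole range, and chance gives about 4.1 at 1 in 20. Acadm, the medium-chain dehydrogenase, was at 258 CPM in normal saline mouse 2 and between 280.3 and 283 CPM in the other normal saline mice (ratio 0.882). Eci2, the peroxisomal enoyl-CoA isomerase, was at 271 CPM in 4-HPAA mouse 2 and between 313 and 317 CPM in the other 4-HPAA mice (ratio 0.905). Acot1, the cytosolic thioesterase, was at 64.1 CPM in normal saline mouse 1 and between 43.2 and 44.2 CPM in the other normal saline mice (ratio 0.954).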

How the results depend on the processing

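No member passed an adjusted p of 0.05 or an unadjusted p under 0.05 in any of the 15 alternatives, DESeq2 and limma-voom among them, and 0 member transcripts passed adjustment in the 10 run for them. Members with a log2 fold change above 0 numbered 22 without 4-HPAA mouse 4, 29 to 39 without any other library and 31 to 34 under the other alternatives, a count added after the values were seen. The median over the members was 0.00 without 4-HPAA mouse 4 and 0.02 to 0.08 without any other library. Of the 41 log2 fold changes, 24 changed sign under at least 1 alternative, none of them past a threshold, and the cause was not tested.

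When single libraries were left out, the 24 ranged as follows: Fabp1 -0.14 to 0.058, Acsl1 -0.080 to 0.11, Slc25a20 -0.013 to 0.11, Cpt2 -0.019 to 0.079, Acadvl -0.062 to 0.043, Acadl -0.042 to 0.095, Acadm -0.016 to 0.096, Acads -0.0029 to 0.081, Hadhb -0.077 to 0.096, Hadh -0.055 to 0.031, Acaa2 -0.040 to 0.072, Decr1 -0.044 to 0.071, Etfa -0.084 to 0.034, Etfb -0.12 to 0.10, Eci2 -0.056 to 0.053, Crot -0.015 to 0.11, Crat -0.22 to 0.096, Pex11a -0.053 to 0.14, Acat1 -0.011 to 0.098, Bdh1 -0.037 to 0.13, Acot1 -0.13 to 0.34, Acot3 -0.62 to 0.041, Acot12 -0.053 to 0.071 and Pdk4 -0.41 to 0.52. The genes that changed sign otherwise were Acadvl, at 0.00018 with a filter of 10 summed counts and 0.00011 with no filter, Eci2 and Acot12, at -0.0079 and -0.0013 with total counts only, and Pdk4, at 0.031 by limma-voom.

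The deviations of same-numbered mice from their group means correlated over all genes tested at 0.04, 0.16, 0.29 and 0.50 for numbers 1 to 4, and normal saline mice 1 and 3 correlated best with another number, so the numbers were not taken as pairs. With the replicate block 0 members passed either threshold, 34 log2 fold changes were above 0, the median was 0.05 and Pdk4 was at 0.055. Pdk4 had the fewest counts of the members, 66 in its lowest library, and the others had at least 145.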

Other observations

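Lists of genes that follow feeding, fasting and the clock, and of other cell types, were measured beside the members. Of 9 tested feeding and lipogenic genes, 6 were above 0 and 3 below on the log2 fold change scale. The split was 1 and 8 without 4-HPAA mouse 4 and 2 and 7 without normal saline mouse 3. In this list 1 gene had an unadjusted p under 0.05, beside 1.75% of all genes tested, and 0 passed adjustment by edgeR. Of 9 fasting genes, 6 were above 0 and 3 below. With single mice left out, this ran from 2 and 7 (without 4-HPAA mouse 4 or normal saline mouse 3) to 8 and 1 (without normal saline mouse 1). It was 3 and 6 without normal saline mouse 2 or 4-HPAA mouse 1. Of 10 tested clock genes 4 were above and 6 below, and 0 fasting or clock genes had an unadjusted p under 0.05.

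Markers of endothelial cells (7 of 7) and stellate cells (7 of 7) had log2 fold changes above 0, with medians of 0.06 and 0.14. The endothelial direction depended on single mice. Without normal saline mouse 4, 1 marker was above 0 and 6 below (median -0.03), and without 4-HPAA mouse 2 the split was the same (median -0.06). Stellate cell markers had at least 5 above 0 whichever mouse was left out. Of 7 Kupffer cell markers, 1 was above 0 and 6 below (median -0.10). This split was 7 and 0 without normal saline mouse 2 and 0 and 7 without 4-HPAA mouse 2. Markers of red blood cells (5 of 5) were below 0, with a median of -1.89 whose size depended on single mice. It was -0.11 without normal saline mouse 2, with 1 of 5 above 0, and -3.30 without 4-HPAA mouse 4, with 0 of 5 above 0. Hepatocyte (10), cholangiocyte (4), adipocyte (1) and pancreas and muscle (1) markers were tested too. In all these cell type lists 0 markers that could be tested had an unadjusted p under 0.05. Summed endothelial markers lay between 115 and 167 CPM in normal saline mice and between 113 and 185 CPM in 4-HPAA mice, and stellate cell markers between 162 and 297 CPM and between 179 and 296 CPM. Markers of cholangiocytes summed to at most 45.6 CPM, of pancreas and muscle to at most 17.2 CPM and of adipocytes to at most 8.36 CPM in any library. The number of cells behind these sums cannot be told from bulk liver.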
